A study of Mus musculus with 6 samples.

Results

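Mouse corneas taken 5 days after an alkali burn were compared with uninjured corneas. The comparison uses 4 of the study's 6 samples, 2 uninjured (day 0) and 2 burned (day 5). It covers every row of the deposited gene table that carries a gene symbol, 23889 of 28539 loci. All mice were C57BL/6J females aged 6 to 8 weeks, per the labels. The day 0 corneas were untreated, and the day 5 corneas had been burned with alkali, with the days counted from that operation. Whole corneas were used, so epithelium, stroma, corneal endothelium, nerves, entering blood cells and any adhering tissue were measured together. Libraries were made from polyadenylated RNA. Whether the samples within a group came from different animals is not given in the labels.

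The cornea is a transparent tissue without blood vessels. A stratified epithelium covers a stroma of ordered collagen fibrils kept by keratocytes, and an inner endothelial layer pumps fluid out of that stroma. Alkali passes through these layers and kills cells. Neutrophils and macrophages then enter, epithelium regrows from the limbus and conjunctiva, scar matrix forms and vessels grow in.

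Each locus has a single FPKM per group, that is, fragments scaled to transcript length and library size, pooled by the authors over the samples of the group. Pairs of FPKM are given with day 0 first and day 5 second, and ranges in parentheses are the authors' lower and upper bounds. No value of a single sample was used, and no test across animals was possible. A locus is called apart when 3 conditions were met. Its FPKM reached 1 in either group, its log2 ratio of (FPKM + 1) was 1 or more in size, and the intervals of the groups did not overlap. "Rose" and "fell" are used only of loci that were apart. Folds are plain ratios of FPKM, and folds against a level near 0 are imprecise.

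Of 13255 named loci with an FPKM of at least 1 in either group, 517 (3.90%) rose and 341 (2.57%) fell, together 6.47%. All counts of loci apart in the lists below are to be read beside these shares. The median fold was 7.78 among those that rose and 6.60 among those that fell. These medians leave out 20 loci that rose from a listed 0 and 11 that fell to a listed 0, which have no fold. A ratio of at least 8-fold on the (FPKM + 1) scale was reached by 114 loci that rose and 73 that fell. The median log2 ratio over all tested loci was -0.08, and the central part from the 25th to the 75th percentile ran from -0.49 to 0.38. The value at day 5 was the higher at 45.2% of tested loci. The share of loci apart grew with the level, from 3.75% at an FPKM of 1 to 5 in the higher group to 15.4% above 100. Over the same range the median half-width of the interval narrowed from 81.4% to 46.6% of the FPKM. None of 14 reference genes was apart, and their median log2 ratio was 0.00. Xist was at 32.3 and 26.01, and 4 Y-linked genes were listed at 0 in both groups. In tissue taken whole, fewer cells of a type and less RNA per cell cannot be told apart.

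**Figure D1:**
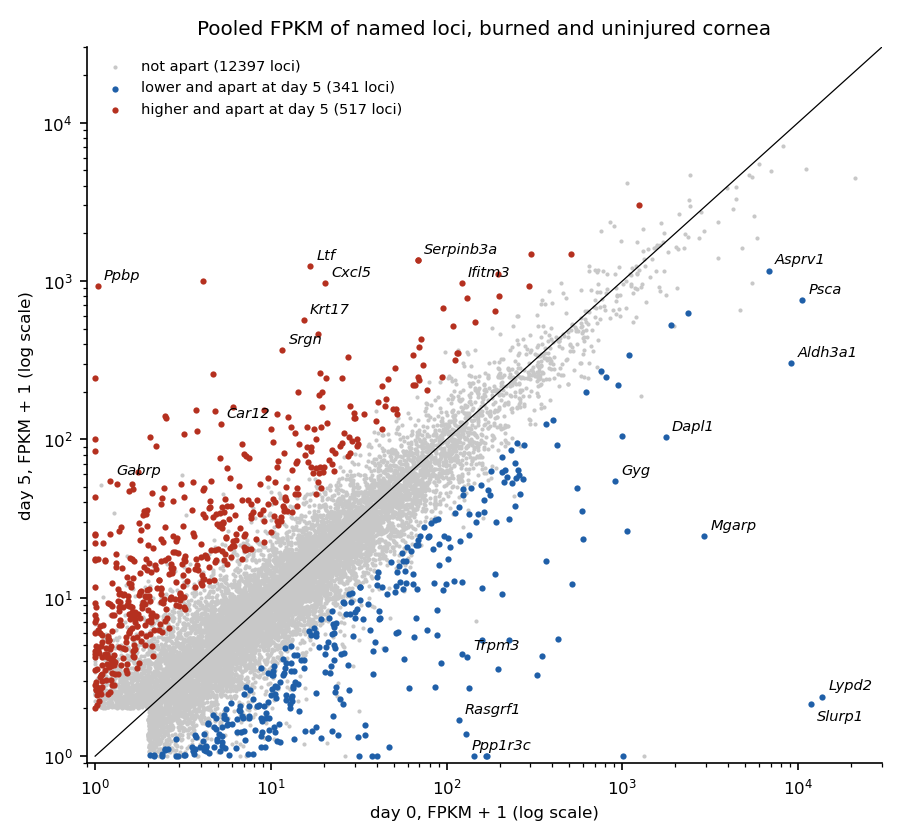
Each point is 1 named locus, with its FPKM + 1 at day 0 on the horizontal and at day 5 on the vertical log axis, in red where it rose (517), blue where it fell (341) and grey where it was not apart (12397); the line marks equal values. Loci that rose and fell form a fringe on both sides of a dense diagonal, and 5 loci above 30000 lie outside the axes.

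Markers of tissue next to the cornea were lower at day 5. The summed FPKM of the lens markers was 395 at day 0 and 35.8 at day 5, and 8 of 14 measured members fell. The pigment cell markers summed to 369 and 87.7, where Tyrp1, a melanin enzyme, was the single one of 8 measured that fell. The photoreceptor markers summed to 113 and 49.3, where Gnat1, the rod transducin gene, was the single one of 11 measured that fell. Skeletal muscle markers stood at 691 and 444, and none was apart. All 4 sums moved in the direction of the genes that fell below, and their part in those results was not tested. Corneal surface genes were among the most abundant messages at day 0. Slurp1, Lypd2 and Psca of the Ly6 family, the corneal crystallin Aldh3a1 and the protease gene Asprv1 were among the 12 highest loci at day 0, and none of these was among the 12 highest at day 5.

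Neutrophil-attracting chemokines carry a Glu-Leu-Arg motif, signal through the receptor Cxcr2 and sit together in the genome. A run of 6 neighbouring loci rose on chromosome 5 between 90759298 and 90905938 (mm10), in the order Cxcl5, Ppbp, Pf4, Cxcl3, Cxcl1 and Cxcl2. Neighbours here are consecutive named loci with an FPKM of at least 1 in either group. Any other locus between them was passed over, so a run need not be unbroken. The promoters of 3 of these genes are shown first, because they share the same letters close to the start. The motif searched was of the kappaB type, GGGA, then any base, then TTTCC, on either strand. It was found in 135 of all 32851 mouse promoters of the RefSeq table (0.411%), each taken from 250 bases before to 50 after the start on GRCm38.p6. Among loci with a single matched promoter, 5 of 285 that rose held it (1.75%), 1 of 179 that fell (0.559%) and 28 of 7041 that were not apart (0.398%). Those 5 were Cxcl1, Cxcl2, Cxcl3, the cytokine gene Il6 and the keratin gene Krt23. The first 3 are neighbours of the same chemokine family, so they are not independent counts. The share of 1.75% rests largely on them. The 5 promoters were picked after the values were seen. The 120 bases before the start are printed 5′ to 3′ on the gene's strand, with the motif in capitals.
Cxcl3 (chr5:90785981-90786100, plus strand): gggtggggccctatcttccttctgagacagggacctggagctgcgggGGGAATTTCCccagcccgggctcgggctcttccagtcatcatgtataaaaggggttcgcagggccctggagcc
Cxcl1 (chr5:90891125-90891244, plus strand): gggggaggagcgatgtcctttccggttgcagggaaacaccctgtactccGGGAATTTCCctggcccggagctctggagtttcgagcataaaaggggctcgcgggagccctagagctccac
Cxcl2 (chr5:90903779-90903898, plus strand): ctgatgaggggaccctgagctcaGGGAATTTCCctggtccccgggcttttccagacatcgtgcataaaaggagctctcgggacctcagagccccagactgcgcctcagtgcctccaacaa
Il6 (chr5:30012994-30013113, plus strand): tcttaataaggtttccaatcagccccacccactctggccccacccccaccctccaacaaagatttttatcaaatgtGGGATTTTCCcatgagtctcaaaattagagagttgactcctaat
Krt23 (chr11:99493121-99493240, minus strand): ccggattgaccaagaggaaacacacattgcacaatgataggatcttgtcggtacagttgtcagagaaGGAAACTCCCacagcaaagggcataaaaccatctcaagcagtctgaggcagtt
The match begins 73 bases before the start in Cxcl3, 71 in Cxcl1, 97 in Cxcl2, 44 in Il6 and 53 in Krt23, where it lies on the other strand. Its letters are identical in the 3 chemokine genes. The windows searched for Ppbp and Pf4, which lie inside the run, do not hold these letters. The promoter of Cxcl5 was not analysed here. A match describes letters and is not a site of binding.

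Levels along the run split in 2 at day 5. Cxcl5, a chemokine of epithelial cells, rose 50.3-fold, from 19.3 (3.06–35.6) to 971 (499–1443). Ppbp, whose product is cut to a neutrophil attractant and is stored in platelets, rose from 0.0343 (0–0.170) to 923 (521–1325). Pf4, the other platelet chemokine of the run, which lacks the Glu-Leu-Arg motif, rose 11.8-fold, from 11.5 (0–25.1) to 137 (62.3–211). Cxcl5 and Ppbp were thus several times as high at day 5 as the other 4. Cxcl3 is listed at 0 for day 0 and reached 99.7 (47.1–152). Cxcl1, made by many injured cell types, rose from 9.83 (0.844–18.8) to 144 (65.9–223). Cxcl2, made by macrophages and neutrophils, rose from 1.53 (0–3.31) to 135 (61.3–209). The Cxcl2 locus is 3.35 times the length of the annotated gene, so its value may hold reads from outside that gene. Intervals were separate at all 6 loci. The remaining member of the class, Cxcl15, was below the minimum at 0.0313 and 0.118. Its promoter lies between those of Cxcl3 and Cxcl1, so it was passed over inside the run. Cxcr2, their receptor on neutrophils, rose from 0.451 (0–0.933) to 9.54 (4.19–14.9). Away from the run, Il6 likewise went from a listed 0 to 6.76 (0.859–12.7). Krt23 rose from 23.6 (10.9–36.3) to 89.5 (49.6–129).

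Matrix proteases formed another run, on chromosome 9 between 7272514 and 7455974, where Mmp13, Mmp12 and Mmp3 are neighbours in the same sense. All 3 promoters hold an AP-1-type motif, TGANTCA, within 46 bases of the start. Plaur, the urokinase receptor gene, holds it 69 bases before the start. The motif is common. It was found in 2565 of 32851 promoters (7.81%), in 23 of 285 of the loci that rose (8.07%), 13 of 179 that fell (7.26%) and 353 of 7041 that were not apart (5.01%). The same 120-base windows are printed for these genes, again picked after the values were seen and with the motif in capitals.
Mmp13 (chr9:7272394-7272513, plus strand): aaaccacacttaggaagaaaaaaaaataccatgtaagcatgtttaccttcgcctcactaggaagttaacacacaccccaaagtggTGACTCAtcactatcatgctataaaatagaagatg
Mmp12 (chr9:7347254-7347373, plus strand): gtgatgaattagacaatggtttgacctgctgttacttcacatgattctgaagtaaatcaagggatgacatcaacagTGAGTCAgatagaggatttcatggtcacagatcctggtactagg
Mmp3 (chr9:7445702-7445821, plus strand): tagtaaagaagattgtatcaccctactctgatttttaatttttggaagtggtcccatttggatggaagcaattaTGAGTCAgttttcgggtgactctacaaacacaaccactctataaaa
Plaur (chr7:24462363-24462482, plus strand): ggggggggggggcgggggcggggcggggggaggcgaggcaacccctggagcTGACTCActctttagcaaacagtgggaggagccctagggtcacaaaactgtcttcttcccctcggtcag
Mmp12 has 2 promoters in the table, and the one nearest the start of the deposited locus is shown. Mmp13, a collagenase, rose from 0.551 (0–1.29) to 45.9 (22.7–69.1). Mmp12, the macrophage elastase, rose from 0.650 (0.0752–1.23) to 12.4 (6.88–17.9). Mmp3, or stromelysin, already stood higher in the uninjured cornea and rose 5.33-fold, from 63.4 (29.6–97.2) to 338 (167–509). It had the smallest ratio of the 3 and the highest level at day 0. Plaur rose 48.5-fold, from 2.21 (0–4.48) to 107 (57.1–158).

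In all, 9 runs of at least 3 rows that are neighbours in this sense moved the same way, 5 upward and 4 downward. One of the downward runs holds only 2 distinct positions, as given below. On chromosome 9 the caspase genes Casp1, Casp4 and Casp12 rose together. Casp1, which cuts the precursor of interleukin-1 beta, rose from 1.14 (0–2.47) to 19.5 (8.81–30.2). Casp4, which senses lipopolysaccharide inside the cell, rose from 0.426 (0–1.07) to 14.5 (5.78–23.1). On chromosome 11 the chemokine genes Ccl9, Ccl6 and Ccl4 rose, Ccl6 from 2.07 (0–4.66) to 51.1 (26.5–75.7) and Ccl9 from 0.616 (0–1.36) to 7.08 (3.10–11.1). Ccl4 was at 0.644 and 47.6, on a locus 8.09 times the length of the annotated gene, so its value may hold reads of a neighbour. On chromosome 12, 3 merged loci of the Serpina3 protease inhibitors rose, and reads of these close copies cannot be assigned to single genes.

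Runs that fell lay on chromosomes 1, 9 and 15. On chromosome 15 Slurp1, Lypd2, a transcript known only by a clone name and Lynx1 fell, and the 3 named genes encode small proteins of the Ly6 family. Lynx1, which modulates acetylcholine receptors, fell from 122 (66.98–176) to 3.44 (1.27–5.61). Psca, a further Ly6 gene nearby, fell 13.98-fold, from 10585 (3879–17290.4) to 757 (424–1090.1). Ly6g6c, of the Ly6 group on chromosome 17, fell 36.1-fold, from 159 (91.9–226) to 4.40 (1.04–7.76), and its exons overlap a gene on the other strand. On chromosome 9 Ankrd34c, the Mir184 locus and Rasgrf1 fell. Rasgrf1, an exchange factor for Ras, fell from 116 (46.8–185) to 0.694 (0–1.80). Ankrd34c, an ankyrin repeat gene, fell from 9.82 (3.70–15.95) to 0.252 (0–0.625). The Mir184 locus fell from 21.2 (8.31–34.05) to 0.431 (0–0.902) and spans 480 times the annotated microRNA gene, so it measures a long transcript and not the mature microRNA. On chromosome 1 the long noncoding RNA gene Pantr1 fell from 23.2 (2.76–43.7) to 0.352 (0–1.43), beside Pou3f3, a transcription factor gene of the nervous system. Sphkap, an anchoring protein for protein kinase A, fell from 12.5 (6.90–18.2) to 0.280 (0.0416–0.518), and its neighbour Pid1, an adaptor gene, from 29.02 (15.6–42.4) to 6.41 (2.85–9.97). The third row of that run, Mir6353, has the same coordinates as Pid1, and was at 1008 and 0, on a locus 2213 times the length of the annotated microRNA. Pou3f3 likewise holds 2 rows at the same coordinates.

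**Figure D2:**
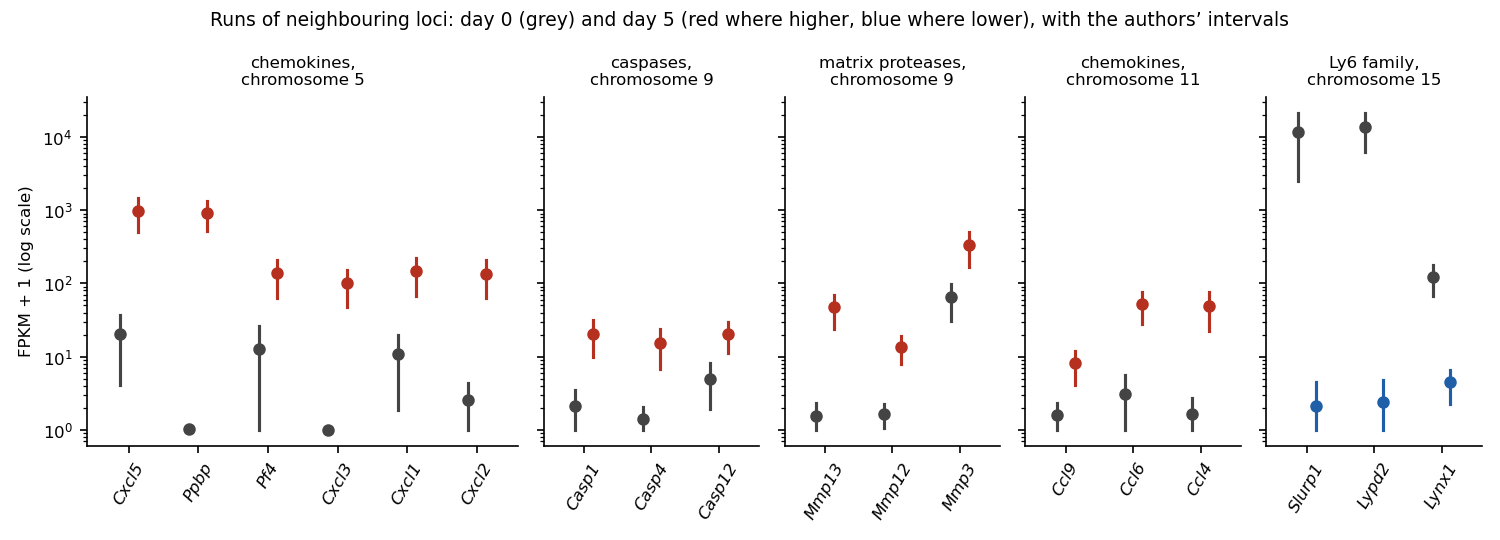
Points give the FPKM + 1 on a log axis at day 0 (grey) and day 5 (red where higher, blue where lower) and lines the authors' intervals, for 5 of the runs in their order along the chromosome. Intervals are separate at each locus, and Mmp3 has the highest level at day 0 among the loci that rose.

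Sensors of microbes and damage were higher in part, with 10 of 25 measured loci that rose, none that fell and a median log2 ratio of 1.33. Most of those that rose are receptors of myeloid cells. Cd14, the lipopolysaccharide co-receptor, rose from 4.12 (0.916–7.32) to 75.1 (41.7–108). Clec4d, Clec4n and Clec7a, lectin receptors for fungal sugars, rose 56.6-fold, 10.5-fold and 13.8-fold, to 17.8 (6.40–29.1), 16.8 (6.99–26.6) and 7.90 (3.36–12.4) at day 5. Nlrp3, the scaffold of the inflammasome that activates Casp1, rose from 0.221 (0–0.490) to 8.16 (3.37–12.9). Nod2, a sensor of bacterial wall fragments, rose from 0.348 (0.0132–0.683) to 2.32 (0.829–3.80). Tlr13, which binds bacterial ribosomal RNA, rose from 0.587 (0–1.28) to 6.31 (2.75–9.86). Toll-like receptors with more RNA in the uninjured cornea were not apart, with Tlr4 at 30.9 and 28.5 and Tlr5 at 8.10 and 8.91. The adaptor genes Myd88 and Pycard were at 17.9 and 32.2 and at 23.8 and 17.2, also not apart. The summed FPKM of macrophage markers was 196 at day 0 and 768 at day 5, and its part in these values was not tested.

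Ligands and brakes of the interleukin-1 and tumour necrosis factor families both included loci that rose. Of 23 measured loci 8 rose and 1 fell, with a median of 1.10. Il1b rose from 1.04 (0–2.19) to 102 (44.7–160.1). Il33, an alarmin of epithelium and stroma, rose from 6.02 (2.23–9.81) to 79.9 (44.96–115). Il1a was at 21.1 and 26.005, Il18 at 83.996 and 38.3 and Tnf at 3.5998 and 3.94, none apart. Il1r1, the signalling receptor, rose from 3.05 (1.18–4.92) to 10.97 (5.63–16.3). Il1r2, the decoy receptor, rose 5.30-fold, from 15.8 (7.32–24.3) to 83.9 (46.5–121). Il1rn, the receptor antagonist, rose from 24.999 (12.3–37.7) to 109 (61.02–157), and its interval at day 5 overlaps that of Il1b. Il1f5, which encodes the antagonist of the interleukin-36 receptor, fell from 16.2 (6.79–25.5) to 0.434 (0–1.01). The interleukin-36 agonist gene Il1f9 was at 16.7 and 32.8 and not apart. Tnfsf11, the ligand that drives osteoclasts, rose from 0.00697 (0–0.0422) to 3.98 (1.54–6.41). Its decoy receptor gene Tnfrsf11b rose from 7.19 (2.79–11.6) to 22.6 (11.9–33.3).

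Of 18 measured NF-kB genes 1 rose and none fell, beside 6.47% apart among all named loci. It was Tnfaip2, from 4.50 (1.44–7.56) to 41.1 (22.1–60.02), whose exons overlap a predicted gene on the other strand. The median was 0.63, and 14 of the 18 had a higher value at day 5. Nfkb1 was at 19.7 and 31.9, Rela at 13.2 and 14.8 and the inhibitor gene Nfkbiz at 51.8 and 57.99.

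Immediate early transcription factor genes, which cells switch on within minutes of a stimulus, were higher in part. Of 23 measured 8 rose and 1 fell, and the median was 1.28. Nr4a1, a nuclear receptor of this class, rose from 0.908 (0.160–1.66) to 34.1 (18.1–50.1). Fosb, an AP-1 subunit, rose from 2.62 (0.489–4.74) to 52.9 (28.6–77.2). Atf3, a stress-induced factor, rose from 5.86 (0.891–10.8) to 91.97 (50.7–133). Egr1, a zinc finger factor, rose 8.48-fold, from 3.71 (1.31–6.11) to 31.5 (19.96–43.03). Fos rose from 29.3 (14.9–43.6) to 136 (73.3–198), and its partner Jun from 76.4 (43.2–109.6) to 202 (112–293). Other AP-1 genes were not apart, with Junb at 108 and 126 and Fosl2 at 66.7 and 40.4. The gene that fell was Klf4, a factor of epithelial differentiation, from 73.1 (40.3–106) to 27.0004 (14.95–39.05).

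Some cytokines that signal through gp130 rose, and the receptors named here were not apart. Osm, made by myeloid cells, rose from 0.0117 (0–0.0896) to 6.30 (1.99–10.6), and Lif from 0.621 (0–1.31) to 7.79 (3.43–12.2). Socs3, the feedback inhibitor of the pathway, rose from 0.799 (0.0874–1.51) to 22.3 (11.6–32.9). Lcn2, a secreted iron carrier that the pathway induces, rose from 0.942 (0–1.95) to 32.8 (17.4–48.2). The shared receptor gene Il6st was at 21.1 and 34.3, Osmr at 40.2 and 40.9 and Stat3 at 46.3 and 53.3. Over the list 5 of 20 rose, with a median of 0.28.

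Interferon-stimulated genes held 1 of 24 measured that was apart, beside 6.47% among all named loci. Ifitm3, a membrane protein that blocks virus entry, was the single one that rose, from 121 (51.2–191) to 968 (540.2–1395), and none fell. The median was -0.12. Isg15 was at 42.9 and 31.2 and Irf1 at 147 and 69.2.

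Growth factor families gave no common direction. None of 13 measured ligands and receptors of the epidermal growth factor family was apart, and their median was -0.53. Areg was at 16.3 (4.16–28.4) and 44.9 (19.8–69.9). Hbegf was at 130.5 (72.5–188) and 90.3 (49.5–131), and the receptor gene Egfr at 49.2 and 45.8. Fgf10, a mesenchymal factor for glands and epithelium, fell from 3.18 (1.33–5.04) to 0.0859 (0–0.202), and Fgf1 from 5.89 (2.83–8.94) to 0.792 (0.133–1.45). The receptor gene Fgfr3 rose 2.98-fold, from 9.86 (5.19–14.5) to 29.4 (15.9–42.9). The other 9 of 12 measured loci of that list were not apart. None of 12 measured Notch genes was apart, with the target gene Hes1 at 293 and 187.

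In the transforming growth factor beta family 6 of 27 measured loci rose and 2 fell, with a median of 0.34. Inhba, the activin A subunit, rose from 0.510 (0–1.37) to 7.98 (2.71–13.2). Its antagonist gene Fst rose from 1.304 (0.280–2.33) to 11.9 (6.17–17.6). Grem1, an antagonist of bone morphogenetic proteins, rose from 0.0907 (0–0.232) to 4.82 (0.660–8.97), and the glycoprotein gene Fstl1 from 41.7 (19.5–63.8) to 218 (113–322). Tgfb3 rose from 18.02 (7.72–28.3) to 66.1 (34.9–97.3). Tgfb1 was at 1.32 and 2.32 and Tgfb2 at 3.10 and 6.37, both not apart, so Tgfb3 had the highest FPKM of the 3 ligands in both groups. Bmp3 fell from 19.3 (9.30–29.4) to 2.40 (0.777–4.03). Id2, a nuclear target of bone morphogenetic proteins, fell from 247 (136–358) to 55.7 (29.1–82.3).

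Several Wnt ligands and antagonists fell. Over the list 3 loci rose and 5 fell of 31 measured, with a median of -0.29. Wnt3a fell from 24.8 (12.8–36.8) to 1.12 (0.0958–2.14). Wnt11 fell from 9.87 (4.08–15.7) to 1.72 (0.239–3.20), and Wnt5a from 21.7 (10.4–32.96) to 5.81 (2.48–9.14). Dkk2, which limits Wnt signalling in the corneal epithelium, fell from 67.9 (35.8–100.03) to 22.3 (12.8–31.8), and its relative Dkk1 from 1.15 (0.158–2.15) to 0.0121 (0–0.0636). The receptor gene Fzd1 rose from 6.17 (3.22–9.11) to 24.3 (13.5–35.1). Lgr5, a stem cell receptor gene, rose from 0.0295 (0–0.0777) to 1.74 (0.297–3.19), and Sfrp2, a secreted antagonist gene, from 10.9 (4.14–17.7) to 36.1 (19.6–52.6). Axin2, a target often read as pathway activity, was at 2.79 and 1.70 and not apart. Exons of Wnt11 and Sfrp2 overlap genes on the other strand, and no source states that strand was kept.

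**Figure D3:**
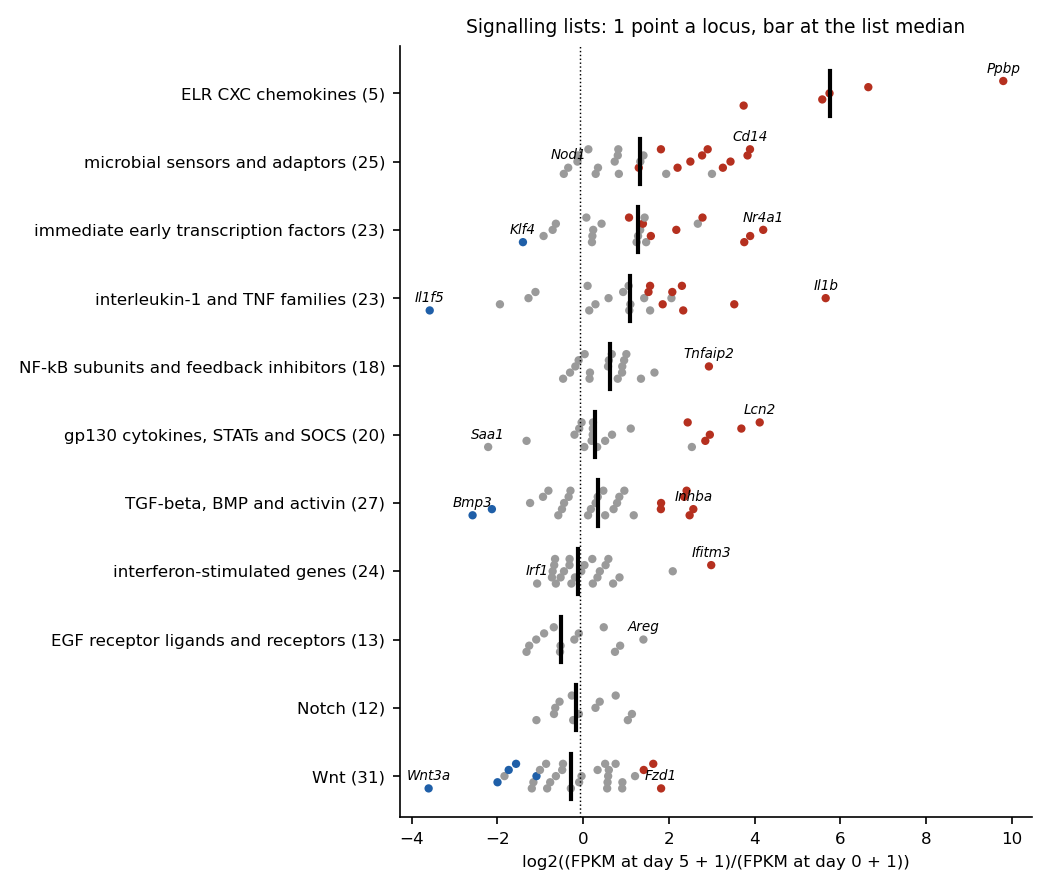
Each point is 1 measured locus of a signalling list, placed by its log2 ratio of (FPKM + 1) at day 5 to day 0, in red where it rose, blue where it fell and grey where it was not apart; black bars are list medians, the dotted line is the median of all named loci (-0.08), and numbers in brackets are loci measured. All 5 measured neutrophil-attracting chemokine genes lie to the right, while the interferon, Notch and Wnt lists are spread around the dotted line.

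Genes of clotting and fibrin removal were higher in part. Of 19 measured loci 9 rose and 1 fell, with a median of 1.22. The plasminogen system rose on both sides. Its activator genes Plau and Plat rose from 21.96 (10.3–33.7) to 62.02 (34.2–89.9) and from 17.8 (9.28–26.4) to 60.7 (34.2–87.1). Serpinb2, an inhibitor of the first of these, rose from 2.77 (0.249–5.29) to 153 (91.7–215). F13a1, the factor XIII subunit that crosslinks fibrin, rose from 1.66 (0.595–2.72) to 8.82 (4.62–13.01). F5, coagulation factor V, rose from 0.0747 (0–0.272) to 3.95 (1.12–6.78). A2m, a broad protease inhibitor, fell 106-fold, from 347 (146–548) to 3.28 (1.53–5.04). F3, the initiator of clotting, was at 101 and 55.6 and not apart. Among complement genes 3 of 15 rose, beside 3.90% of all named loci. Cfp, or properdin, rose from 0.796 (0.267–1.33) to 6.44 (3.13–9.75). C1qb, a subunit of the first component, rose from 28.1 (9.23–46.98) to 96.2 (49.7–143), and C3ar1, an anaphylatoxin receptor gene, from 0.913 (0.0541–1.77) to 4.06 (1.92–6.21). The central component gene C3 was at 1.28 and 2.93 and not apart.

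Of 22 measured prostaglandin and lipoxygenase genes 4 rose and 1 fell, with a median of 0.58. Ptgs2, the inducible cyclooxygenase, rose from 1.49 (0.509–2.46) to 27.1 (13.7–40.5). Alox15, which makes lipid mediators of resolution, rose from 5.24 (1.80–8.68) to 32.1 (17.9–46.3), and the epidermal lipoxygenase gene Alox12e from 6.502 (2.82–10.2) to 74.8 (33.5–116). Ptger4, a receptor of prostaglandin E2, rose from 0.491 (0–1.02) to 4.66 (1.65–7.67). Ptgds, the synthase of prostaglandin D2, fell 9.29-fold, from 109 (49.3–168) to 11.7 (4.61–18.8). Outside the list Ptgr1, a reductase that inactivates prostaglandins and leukotriene B4, fell 26.4-fold, from 598 (319.97–877) to 22.7 (11.1–34.2).

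Markers of blood cells differed by type. Of 10 measured neutrophil markers 7 rose, with a median of 2.77 and a summed FPKM of 104 at day 0 and 495 at day 5. Csf3r, the receptor of the neutrophil growth factor, rose from 0.363 (0–0.830) to 7.72 (3.26–12.2). Trem1, an activating receptor, rose from 0.131 (0–0.327) to 15.99 (6.55–25.4). Granule genes were divided. Ltf, or lactoferrin, a protein of neutrophil granules and of glands, rose from 15.7 (7.94–23.4) to 1243 (304–2182), with a further row at the same coordinates not apart, and Lcn2, of the same granules and of epithelium, 34.8-fold. The other granule genes named next were under the minimum, and which cells gave the Ltf and Lcn2 values was not tested. Elane was listed at 0 in both groups, with Mpo at 0 and 0.0194, Ngp at 0.0606 and 0.222 and Camp at 0.158 and 0.818. Mmp9, the gelatinase of neutrophil granules and epithelium, rose from 0.176 (0–0.369) to 8.30 (4.19–12.4). Monocyte and macrophage markers included 5 of 19 that rose, with a median of 1.16. Tyrobp, a signalling adaptor of myeloid cells, rose from 3.44 (0.291–6.60) to 35.96 (16.2–55.8). Mrc1, the mannose receptor of tissue macrophages, rose from 5.03 (1.82–8.24) to 20.1 (10.03–30.2). Cx3cr1, a receptor of resident cells, was at 3.12 and 2.67, and Csf1r, the receptor of their growth factor, at 4.11 and 12.1. Among chemokine receptors Ccr1 rose from 0.993 (0–2.42) to 20.6 (7.57–33.7) and Cxcr4 from 0.173 (0–0.502) to 3.26 (0.976–5.54).

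Lymphocyte markers were mostly under the minimum. This held for 14 of 19 markers of T, B and natural killer cells, and none was apart. Cd3e was at 0.0825 and 0.406 and Cd8a at 0 and 0.0445. No dendritic cell marker was apart, though all 8 measured had a higher value, among them H2-Aa, an antigen-presenting chain, at 75.4 (36.1–115) and 169.5 (93.6–245). Hdc, the enzyme that makes histamine, rose 80.8-fold, from 0.761 (0–1.94) to 61.5 (11.7–111). The mast cell protease genes Cma1, Mcpt4 and Tpsb2 were at 4.76 and 7.36, at 4.16 and 5.09 and at 2.65 and 3.96, none apart. The basophil protease gene Mcpt8 was at 0 and 0.150. Of 7 measured platelet markers 3 rose, Ppbp and Pf4 among them, and none fell. Values at day 5 exceeded those at day 0 for 6 of the 7, and their median log2 ratio was 1.36. The other 8 platelet markers counted were under the minimum. Among them the platelet glycoprotein genes Gp9 and Gp6 and the megakaryocyte factor gene Gfi1b were listed at 0 in both groups. Tubb1, the platelet tubulin gene, was at 0.0258 and 0.182.

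Of 19 measured endothelial markers 7 rose, with a median of 1.47. Emcn, a sialomucin of capillaries, rose from 7.97 (0.804–15.1) to 34.7 (16.2–53.2). Tek, the angiopoietin receptor, rose from 0.492 (0–1.01) to 2.52 (1.09–3.96). Its partner gene Tie1 was at 1.77 and 5.15, and Cldn5, the claudin of endothelial junctions, at 1.51 and 3.69, both not apart. Of 10 pericyte markers 2 were apart, beside 6.47% among all named loci. Mcam, an adhesion protein, rose from 1.70 (0.429–2.97) to 9.18 (4.39–13.97), and the peptidase gene Anpep from 3.34 (0.853–5.83) to 16.8 (6.35–27.2). Rgs5 was at 11.5 (2.33–20.7) and 55.5 (19.4–91.6) and Pdgfrb at 13.3 (6.25–20.4) and 25.8 (13.6–38.1). No lymphatic marker was apart, with Lyve1 at 0.805 and 2.66 and the lymphatic master factor Prox1 at 0.629 and 0.880. Haemoglobin messages rose, Hbb-bs from 1.77 (0–3.93) to 39.6 (18.8–60.3), though reads of close globin copies may be split between loci. Slc4a1, the anion exchanger of the red cell surface, was at 0 and 0.0231.

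Of 11 measured Schwann cell and myelin markers 1 rose and 1 fell, beside 6.47% apart among all named loci. S100b, a calcium-binding protein, fell from 20.1 (9.17–31.1) to 4.25 (1.05–7.45). Egr2, a factor of myelination and an immediate early gene, rose from 0.235 (0–0.531) to 2.69 (0.865–4.52). The others were not apart, among them the myelin basic protein gene Mbp at 33.1 (18.2–48.1) and 33.8 (18.6–48.99). Calcb, a neuropeptide gene of sensory nerves, rose 109-fold, from 0.222 (0–0.504) to 24.3 (7.87–40.7). Lsamp, an adhesion protein of neurons, fell from 59.9 (25.8–93.9) to 1.68 (0–3.44), and the peptide gene Npy from 324 (167–481) to 2.26 (0–5.06).

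Keratins differed in direction. Of 15 measured keratin genes 7 rose and 2 fell, with a median of 1.47. Krt8 and Krt18, the pair of simple epithelia, rose from 1.36 (0.424–2.30) to 22.4 (11.5–33.4) and from 5.62 (1.58–9.66) to 49.99 (23.6–76.4). Krt7, of glandular epithelium, rose from 70.8 (38.8–103) to 429.9 (227–632). Krt19, of conjunctiva, rose from 194 (113–275) to 1099.7 (574–1625). Krt16, of proliferating epidermis, rose from 2.98 (0.390–5.57) to 20.7 (9.47–31.98), and Krt17, a keratin of injury, from 14.4 (8.10–20.7) to 564 (191–937). Keratins of stratified layers gave other values. Krt78 fell from 35.7 (20.7–50.8) to 5.26 (2.45–8.07), and Krt80 from 233 (129–336) to 84.7 (46.6–123). Krt13, of mucosal epithelium, was at 769 (361–1176) and 765 (319.9–1209). The limbal keratin gene Krt15 was at 2435 (497–4372) and 2974 (544–5403). Krt5, the basal keratin, was at 1199 (0–2445) and 589.7 (175–1005), with an interval at day 0 that reached 0. These 3 were not apart. Krt12, the cornea's own keratin, has no usable value at day 0 and is not counted.

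Of 30 measured junction genes 1 rose and 2 fell, beside 6.47% apart among all named loci. Cdh3, or P-cadherin, rose from 3.24 (1.27–5.22) to 31.2 (17.3–45.1). The desmoglein genes Dsg1a and Dsg1b fell, Dsg1b from 66.7 (34.99–98.4) to 10.3 (4.06–16.6), and reads of these close copies could be split between them. The other 27 were not apart. Dsg3, the desmoglein of basal cells, was at 224 (103–345) and 273 (136–409.6), and the desmoplakin gene Dsp at 343 (69.7–615) and 222 (77.7–366). In the cornified envelope list 4 of 16 rose and 2 fell. Sprr2f, an envelope protein, rose from 0.360 (0–0.924) to 25.3 (7.31–43.3), with close copies in its family. Spink5, an inhibitor of epidermal proteases, rose from 16.2 (8.96–23.5) to 60.4 (32.5–88.3). Asprv1, the protease that processes filaggrin in skin, fell from 6795 (1729–11861) to 1161 (602–1719.96). Lce3a, a late envelope protein outside the list, fell 49.2-fold, from 85.02 (41.1–129) to 1.73 (0–3.95).

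Mucosal genes were higher. Of 12 measured conjunctival and goblet cell markers 7 rose and the water channel gene Aqp5 alone fell, with a median of 2.54. The 7 include Krt7 and Krt19, already counted among the keratins, and the water channel gene Aqp4, given below. Muc1, a membrane mucin, rose from 10.9 (5.37–16.4) to 81.6 (43.7–119.5). Agr2, a helper of mucin folding, rose from 9.86 (2.30–17.4) to 66.04 (32.5–99.6). Gp2, a glycoprotein of mucosal cells, rose from 0.321 (0–0.730) to 14.6 (7.53–21.7), and the secreted goblet cell mucin gene Muc5ac from 0.0104 (0–0.0403) to 1.61 (0.715–2.51). Spdef, the factor of goblet cell fate, was at 0.344 and 1.58 and not apart. Among transcription factors of corneal and surface identity 2 of 27 rose and 1 fell, beside 6.47% apart among all named loci, with a median of -0.25. Barx2, a homeobox factor of glands, rose from 4.65 (0.730–8.58) to 36.7 (17.5–55.8). Trp63, of epithelial stem cells, was at 118 and 105, and Ehf, of differentiated epithelium, at 394 and 309, both not apart. None of 21 measured corneal epithelial genes rose and 8 fell, with a median of -1.02. Ces1d, a carboxylesterase, fell from 368 (206–530.4) to 16.2 (5.97–26.4). Aldh1a1, a further corneal crystallin, fell from 187 (102–271) to 13.02 (5.05–20.997). Cldn4, a claudin, was at 1314 (733–1894) and 2127 (778–3475), and Gja1, or connexin 43, at 162 (90.4–234) and 219 (124–314), both not apart.

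Collagens of the stroma differed in direction. Of 32 measured collagen genes 5 rose and 4 fell, with a median of 0.33. Col1a1, the main fibrillar chain, was at 695 (227–1163) and 1179 (319.98–2037), and its partner Col1a2 at 729.97 (199–1261) and 959 (329–1589), both not apart. Col3a1, the fibrillar collagen of healing tissue, rose 19.9-fold, to 1351 (371–2331), a level whose interval overlaps that of Col1a1 at day 5. Col14a1, which binds to fibril surfaces, rose from 4.25 (2.07–6.43) to 36.6 (20.3–52.8). Col11a1, which starts fibrils, rose from 21.3 (5.82–36.8) to 84.2 (40.6–128). Col8a1, of Descemet's membrane, rose from 11.1 (6.48–15.7) to 42.3 (25.7–58.8), and Col18a1, of basement membranes, from 3.10 (1.10–5.11) to 46.7 (25.96–67.5). Collagen IV differed by chain. Col4a3 fell from 9.55 (3.95–15.2) to 0.422 (0.0123–0.833), and its partner Col4a4 from 7.85 (1.81–13.9) to 0.668 (0.0858–1.25). Col4a5, the other chain of that trimer, was at 20.6 (8.01–33.3) and 12.8 (4.29–21.4). The broadly expressed Col4a1 and Col4a2 were at 13.1 (4.70–21.5) and 41.7 (14.6–68.8) and at 14.6 (4.81–24.5) and 42.8 (12.3–73.3), with higher values at day 5. These last 3 genes and Col17a1, of hemidesmosomes, at 224 (96.99–350.03) and 94.2 (51.5–137), were not apart.

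**Figure D4:**
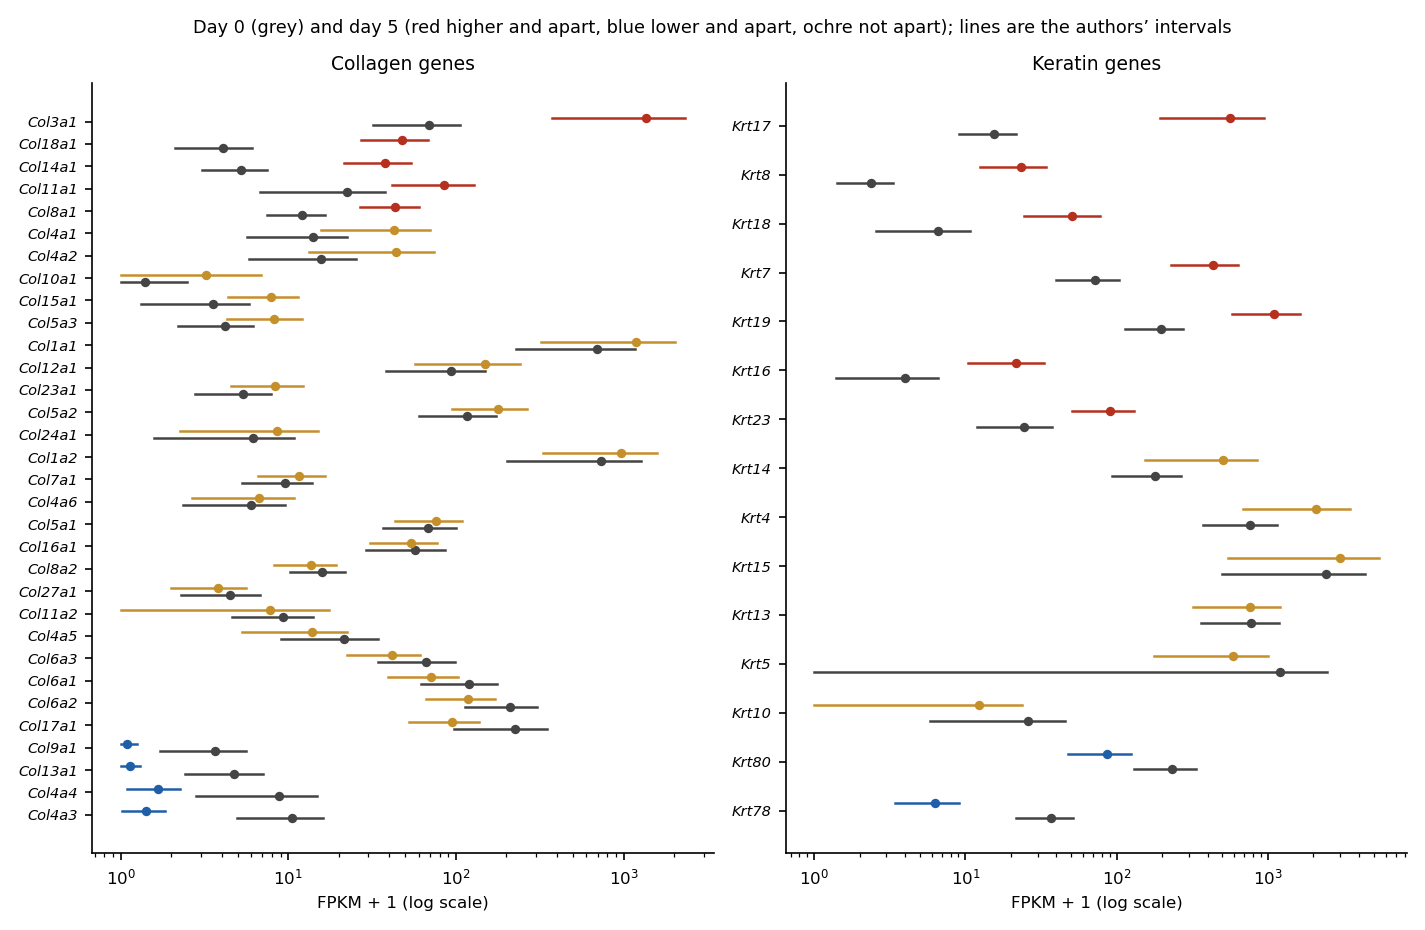
Points give the FPKM + 1 on a log axis and lines the authors' intervals for measured collagen and keratin genes, at day 0 in grey and at day 5 in red (rose), blue (fell) or ochre (not apart). Col4a3 and Col4a4 have the most negative log2 ratios of the collagens, and Krt17 and Krt8 the highest of the keratins.

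Enzymes that finish collagen were higher in part. Of 21 measured 4 rose and 1 fell, 18 had a higher value, and the median was 1.04. Lox, which crosslinks collagen and elastin, rose from 1.79 (0.789–2.78) to 18.6 (10.6–26.6). Plod2, a lysyl hydroxylase of scar crosslinks, rose from 1.99 (0.405–3.57) to 7.83 (3.79–11.9), and Bmp1, which trims procollagen, from 3.47 (1.80–5.14) to 11.8 (6.51–17.2). Eln, elastin itself, rose 36.4-fold, from 0.961 (0.201–1.72) to 34.95 (20.7–49.3), with a predicted gene on the other strand over its exons. Among proteoglycan and hyaluronan genes 4 of 26 rose and 2 fell. Has2, a hyaluronan synthase, rose from 0.659 (0.131–1.19) to 16.1 (8.84–23.3). Vcan, a large proteoglycan that binds hyaluronan, rose from 0.553 (0.0373–1.07) to 11.4 (5.596–17.3), and Bgn, or biglycan, from 292 (135–449) to 933 (449–1417). Kera, a keratan sulfate core protein, fell 45.9-fold, from 516 (276–755) to 11.2 (4.98–17.5). Chst5, which adds sulfate to keratan chains, fell 58.3-fold, from 33.4 (18.3–48.6) to 0.573 (0–1.21). Lum, or lumican, another keratan sulfate core, was at 237 (129–346) and 243 (128–359), and Dcn, or decorin, at 3484 (1039.8–5928) and 1388 (742–2034), both not apart.

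Contractile and wound matrix genes were higher in part. Of 26 measured 11 rose and none fell, with a median of 1.31. Acta2, the smooth muscle actin of myofibroblasts, rose from 17.1 (4.93–29.3) to 99.9 (47.4–152). Tpm1, a tropomyosin, rose from 49.8 (17.03–82.6) to 279 (149–409.7). Actn1, an actin crosslinker, rose from 6.89 (2.72–11.05) to 33.7 (18.6–48.8). Spp1, or osteopontin, rose from 15.2 (5.41–24.96) to 71.4 (38.3–105). Sparc, a matrix protein of remodelling, was at 578 and 510.2 and not apart. Of 29 measured integrin, laminin and nidogen genes 4 rose and 1 fell, beside 6.47% apart among all named loci. Itga5, the fibronectin receptor subunit, rose from 0.648 (0.111–1.18) to 4.60 (2.12–7.07). Lama4, a laminin chain of vessels, rose from 4.59 (1.72–7.45) to 23.1 (12.8–33.5). Itgb7, an integrin of lymphocytes, fell from 13.8 (7.37–20.3) to 3.06 (1.09–5.04). Itgb1, the shared beta subunit, was at 112 (63.1–161) and 224 (127–320.2) and not apart.

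Fluid and ion transport genes moved in both directions. Of 23 measured 4 rose and 4 fell, and the median of -0.07 changed sign when day 5 was rescaled. Slc4a11, a transporter of corneal endothelium, fell 18.05-fold, from 55.9 (7.51–104) to 3.10 (0–6.81). Water channels differed by member. Aqp5, of the corneal epithelium, fell 41.5-fold, from 1062 (338–1786) to 25.6 (10.9–40.2). Aqp1, of keratocytes, endothelium and vessels, fell from 157 (88.7–225) to 50.5 (27.98–72.98). Aqp3, which carries glycerol as well, was at 1544 (765–2323) and 1630.1 (761–2499) and not apart, while Aqp4 rose from 1.23 (0–4.70) to 89.4 (26.4–152). Carbonic anhydrases differed too. Car3, a cytosolic form, fell 94.8-fold, from 427 (234–620.2) to 4.50 (0.331–8.68). Car12, a membrane form, rose 29.6-fold, from 4.17 (1.90–6.44) to 124 (69.04–178), and the cytosolic Car13 rose from 15.02 (7.09–22.95) to 119 (69.8–168). Slc16a3, the lactate exporter, rose from 4.83 (0.980–8.69) to 56.005 (15.5–96.5). Slc16a12, a creatine transporter of the same family, fell from 30.4 (16.7–44.1) to 0.327 (0–0.667).

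Energy metabolism differed by pathway. Of 27 measured glycolysis and hypoxia genes 21 had a higher value, beside 45.2% of all tested loci. Of the 27, 4 rose and 1 fell, with a median of 0.65. Hk2, the inducible hexokinase, rose from 6.66 (3.47–9.84) to 31.03 (17.1–44.997). Pfkp, a phosphofructokinase, rose from 10.95 (4.01–17.9) to 40.8 (19.2–62.4). Ldhb, a lactate dehydrogenase subunit, rose from 20.4 (8.68–32.03) to 73.6 (38.8–108), and Bnip3, a mitophagy receptor induced by hypoxia, from 26.9 (8.21–45.6) to 102 (54.9–149). Enzymes with the highest levels were not apart, Gapdh at 446 (249.5–643) and 969 (535–1404) and Ldha at 580.4 (309.6–851) and 873 (445–1302). Egln3, an oxygen sensor that hypoxia induces, fell from 101 (48.6–153) to 16.5 (8.95–23.98). Respiratory chain genes had a median of -0.05, which changed sign when day 5 was rescaled. Sdhc was the single one of 31 that was apart, beside 6.47% among all named loci, and rose from 30.2 (20.98–39.5) to 92.1 (53.7–131).

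Glycogen genes held some of the largest falls. Ppp1r3c, which brings a phosphatase to glycogen synthase, fell 327-fold, from 127 (66.8–188) to 0.389 (0–0.854). Gyg, or glycogenin, the protein that primes each glycogen particle, fell 16.97-fold, from 907 (488–1326) to 53.5 (27.1–79.8). Pygl, the liver-type glycogen phosphorylase, fell 10.2-fold, from 65.8 (36.9–94.7) to 6.43 (2.64–10.2). Ppp1r3b, a related targeting subunit, rose from 0.811 (0.0120–1.61) to 9.95 (4.74–15.1). The other 14 of 18 measured were not apart, among them Gbe1, the branching enzyme gene, at 13.7 (7.10–20.3) and 5.81 (2.83–8.78) and Gys1, the synthase gene, at 2.04 (0.653–3.43) and 4.96 (2.18–7.73). The list median of -0.07 changed sign when day 5 was rescaled.

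Lipid synthesis genes had lower values. Of 22 cholesterol and fatty acid genes 21 were lower in value at day 5, while 45.2% of all tested loci were higher. The median was -0.66 against -0.08 over all named loci. A single gene of the 22 was apart, beside 6.47% among all named loci. It was Insig1, which holds back the activator of the pathway and fell 5.91-fold, from 261 (143–379) to 44.2 (21.9–66.5). Scd2, a desaturase, was at 259 (114–404) and 89.5 (48.9–130.1). Sqle, or squalene epoxidase, was at 236 (131–340.2) and 101 (56.04–146). Hmgcs1, at the head of the pathway, was at 216 (108–323) and 95.9 (50.5–141).

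Clock genes had lower values as well, 13 of 16, with a median of -0.65, while 45.2% of all tested loci had a higher value. Of the 16, 2 were apart, beside 6.47% among all named loci. Arntl, which encodes the clock activator BMAL1, fell from 14.4 (5.62–23.1) to 3.04 (0.844–5.23). Hlf, an output factor of the clock, fell from 17.03 (9.94–24.1) to 4.96 (2.56–7.37). The partner gene Clock was at 28.3 (13.5–43.2) and 18.9 (9.68–28.2), not apart. Per1 and Bhlhe40, with the highest log2 ratios of the list, were at 14.5 and 21.96 and at 75.8 and 157, also not apart. The labels give no hour of collection.

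Redox and iron genes were higher in part. Slc7a11, the cystine importer, rose from 0.578 (0–1.70) to 16.9 (2.24–31.5). Hmox1, or heme oxygenase, rose from 3.53 (0.0272–7.02) to 39.8 (19.5–59.99), and Gpx3, the secreted glutathione peroxidase, from 28.8 (11.6–45.95) to 145 (80.9–209.7). These were 3 of 30 antioxidant genes, beside 3.90% of all named loci that rose. The other 27 were not apart, among them Gsta4, a glutathione transferase for lipid aldehydes, at 5428 (0–11129) and 965 (412–1518). Of 15 iron and heme genes 7 rose, with a median of 1.32. This list also holds Ltf and Lcn2, given above with the neutrophil genes. Cp, the ferroxidase ceruloplasmin, rose from 6.72 (0–13.8) to 38.2 (21.2–55.2). Slc40a1, the iron exporter, rose from 0.724 (0.103–1.34) to 5.63 (2.63–8.63), and Hp, which binds free haemoglobin, from 0.116 (0–0.290) to 5.74 (1.89–9.59). The storage genes Fth1 and Ftl1 were at 479 and 624 and at 349.6 and 752, not apart. Arg1, or arginase, rose from 93.6 (52.6–135) to 248 (138–358), while Nos2, which uses the same substrate, was under the minimum at 0.0114 and 0.287.

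Stress and division genes differed by list, beside 6.47% apart among all named loci. Of 18 unfolded protein response genes Trib3, a pseudokinase, fell from 4.57 (1.46–7.69) to 0.704 (0–1.45), and none rose. Hspa5, the chaperone BiP, was at 206 (109–302) and 230.1 (119.97–340.2). Of 14 measured heat shock genes 1 rose and 2 fell. Hspb8, a small heat shock protein, rose from 5.36 (1.43–9.29) to 24.4 (11.9–36.9). Hspb1 and Cryab, of the same family, fell from 271 (143–399.7) to 55.4 (25.8–84.9) and from 69.8 (36.99–103) to 23.6 (10.3–36.8). Cryab is abundant in lens, whose summed markers were also lower, and their part was not tested. Pmaip1, a death-promoting gene, rose from 0.982 (0–2.002) to 27.4 (15.5–39.2), and Mlkl, the executor of necroptosis, from 4.47 (1.11–7.83) to 18.01 (8.70–27.3). The other 18 of 20 genes of p53 and cell death were not apart. Of 25 cell cycle genes 19 had a higher value, beside 45.2% of all tested loci, and none rose, with a median of 0.56. Mki67, the usual marker of dividing cells, was at 12.5 (6.66–18.3) and 26.4 (14.9–37.9). Ccnd1, or cyclin D1, fell from 178 (98.5–256) to 62.4 (35.1–89.6).

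**Figure D5:**
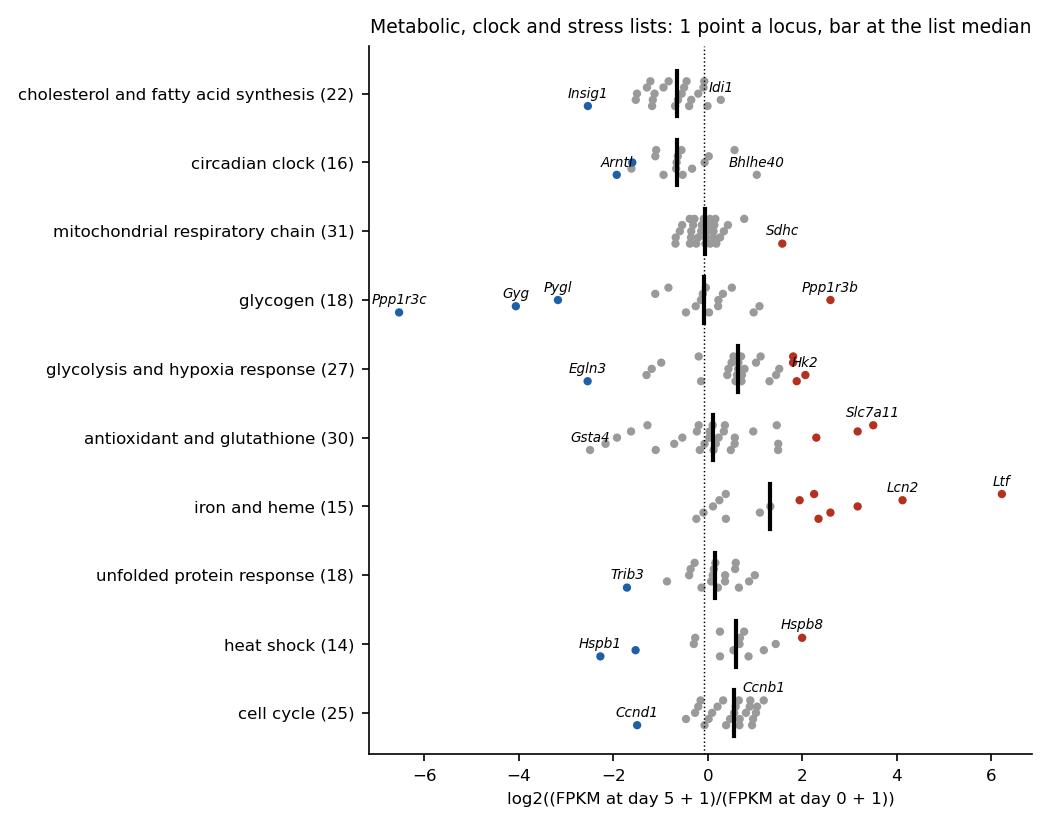
Each point is 1 measured locus of a metabolic, clock or stress list by its log2 ratio of (FPKM + 1) at day 5 to day 0, in red where it rose, blue where it fell and grey where it was not apart; black bars are list medians and the dotted line the median of all named loci (-0.08). The cholesterol and clock medians lie left of the dotted line, and the glycogen list reaches far to the left through 3 members.

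Some of the largest differences lay outside these groups. Srgn, or serglycin, the proteoglycan of granules in blood cells, rose 34.6-fold, from 10.6 (2.06–19.1) to 367 (158–576). Wfdc18, a whey acidic protein gene, rose from 17.5 (0–36.1) to 459 (216–702). Serpinb3a, a protease inhibitor of squamous epithelium, rose from 67.5 (32.1–103) to 1356 (563–2149). H19, an imprinted noncoding RNA of growing tissue, rose 39.2-fold, from 3.83 (0.402–7.26) to 150.2 (79.2–221). The potassium channel gene Kcnj15 rose from 0.872 (0.131–1.61) to 32.3 (17.6–47.001), and its relative Kcnj16 was listed at 0 at day 0 and reached 16.4 (8.46–24.4). Il24, a cytokine of wounded epithelium, was also listed at 0 at day 0 and reached 23.9 (9.33–38.5). Ang2, which encodes a secreted ribonuclease, was listed at 0 and reached 21.3 (7.67–34.9). Tspan8, a tetraspanin of glandular cells, rose from 1.11 (0–2.50) to 44.97 (23.6–66.3).

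Others fell. Dapl1, a gene of epithelial differentiation, fell from 1760.4 (947–2574) to 102 (52.8–152). Trpm3, a cation channel whose introns hold the gene of miR-204, fell 39.7-fold, from 129 (11.3–247) to 3.25 (0–7.79), with overlapping exons on the other strand. Adtrp, a hydrolase of lipid esters, fell from 86.8 (49.4–124) to 4.80 (1.81–7.80). Paqr5, a progestin receptor gene, fell from 76.6 (40.8–112) to 5.22 (2.08–8.37). Cldn10, a claudin that forms ion channels between cells, fell from 63.9 (32.1–95.8) to 4.62 (0.365–8.88), and Slc26a7, an anion exchanger, from 21.7 (10.4–32.9) to 0.784 (0.117–1.45).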

How the data were processed

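Whole corneas of the day 0 and day 5 groups were sequenced as polyadenylated RNA. The authors deposited 1 FPKM per locus and group with its interval, per the file headers. The tools named are TopHat2 2.1.0, Bowtie2 2.2.6, Cufflinks 2.2.1, Cuffdiff and build mm10, per the submitters' processing notes. Annotation and strandedness are not given in the sources used here. The depth is unknown and no count or single-sample column was used, so no test, interval over animals or detection floor was computed. Python 3.11.15, numpy 2.4.6, pandas 2.3.3 and matplotlib 3.10.9 computed ratios with a pseudocount of 1 and the rule for loci apart, which was checked on simulated data. That simulation planted only large folds away from low levels, with noise much narrower than the intervals. It checks that the rule runs as written and not its error rate in these data. In a GENCODE M21 annotation 98.7% of 22315 single-symbol loci overlap their gene. By the same annotation, exons of 136 of the 837 single-symbol loci apart overlap a gene on the other strand. H19, Kcnj15, Tspan8 and Slurp1 are among them, and the overlap is not marked at every gene named above.

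Members and 58 gene lists were chosen with earlier results of these data known. The lists overlap, with 1177 entries for 1132 distinct symbols, so their counts are not independent of each other. Members on loci shared with genes outside their list were not counted, as decided after the data were seen. Where a listed symbol had several rows, the row with the highest summed FPKM of both groups was used. Among all named loci, 410 symbols are on more than 1 locus. Named genes were drawn from a wider set of candidates. It holds the 40 largest per direction among single-symbol loci apart with an FPKM of at least 10. Predicted models, clone names, ribosomal pseudogenes and microRNA and small nucleolar RNA symbols were left out there. The set also holds up to 10 members apart and 6 not apart per list, and all members of lists of up to 20. The 12 most abundant loci per group with those exclusions and all run members complete it. Not every candidate is named, S100a8, Dmkn and Mgarp among those left out, and the choice among candidates was made with the values known. Axin2, C3, Col4a1, Col4a2, Col4a5, Mki67, Tgfb1, Tgfb2 and Tnf fall outside this set and were named after their values were seen. Alternatives to the pseudocount, minimum level, fold, intervals and scaling were tried.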

Additional observations from a re-analysis of the deposited data

Results flagged for a closer look

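Loci without a gene symbol take no part in the comparison above. Of 2321 of them with an FPKM of at least 1 in either group, 16 rose by the rule used for named loci and 48 fell. The 16 are signal at day 5 above the uninjured corneas in rows that the report does not use, while the 48 lie below them. With no symbol they are given as counts only.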

How the results depend on the processing

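The counts of 517 loci that rose and 341 that fell became 305 and 179 with a log2 ratio of at least 2. They became 1282 and 1257 when the intervals were not used, and 844 and 678 when half-widths were combined in quadrature. These alternatives loosen, tighten or drop a condition of the rule, so the counts move by construction. Under the other alternatives both counts stayed within 1.5 times, from 390 to 580 higher and from 263 to 348 lower. Rescaling day 5 to remove a median shift of -0.11 (log2, over 7584 loci with an FPKM of at least 5 in both groups) gave 580 and 296. Among 1009 named genes, none that was apart changed direction under an alternative. That was fixed in advance, because none of these alternatives can change the sign of a ratio that large. Of the 1009 genes, 28 were no longer apart with a minimum FPKM of 5, 9 after rescaling, 37 with a pseudocount of 5 and 73 with a log2 ratio of at least 2. A further 15 became apart after rescaling, 95 in quadrature and 200 without intervals. The medians of the ion transport, glycogen and respiratory chain lists changed sign after rescaling, and the cause was not tested. The fibroblast growth factor median did so with a pseudocount of 5 and with no filter, and the Schwann cell median with a minimum of 5 and with no filter. With no filter the lacrimal and salivary gland median went from -5.32, on 1 measured locus, to just above 0, and the sex-linked median from -0.30 to 0. No paired analysis was possible because the deposited columns carry no replicate. For the same reason leaving out each replicate was not run. Depth is unknown, and interval widths limit calls at low levels.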
